A study of Arabidopsis thaliana with 21 samples.

Results

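Seedlings of Arabidopsis thaliana that lack normal HY5 were compared with wild type (WT) in growth light. The comparison used 6 of the 21 libraries of the series: 3 of Col-0 (WT) and 3 of the mutant hy5, chosen by their labels. The plants were 7 days old, were grown on Murashige and Skoog medium in light-dark cycles at 100 µmol m-2 s-1, and were sampled after 2 h of the control condition. The labels do not give the hy5 allele. Whole seedlings were used, mRNA was selected with poly-T beads, and each group had 3 biological replicates. The other growth-light groups entered the removal of genes with few counts, the scaling and the estimate of the spread, and gave side values. They were 35S:HY5-GFP lines carrying K87K or K87Q in hy5-1 and K87R in hy5-2, in which the constitutive 35S promoter drives HY5. WT and hy5 under high light (2 h at 500 µmol m-2 s-1) served as a second set of libraries.

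HY5 (ELONGATED HYPOCOTYL 5) is a basic leucine zipper transcription factor that binds ACGT-containing elements such as the G-box. It accumulates in the light and is degraded in darkness through the ubiquitin ligase COP1. Mutants are known for a long hypocotyl in the light, less chlorophyll and anthocyanin, and altered root growth and nutrient uptake.

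The 6 libraries held 13545719 to 19811935 counts. Spearman correlations across genes were 0.985 to 0.989 among WT, 0.981 to 0.985 among hy5 and 0.955 to 0.968 between genotypes, so every between-genotype value lay below every within-genotype value. Plastid genes took 4.15% of the counts in hy5 replicate 3 and 0.649 to 1.62% in the other 5 libraries. Mitochondrial genes took 0.184% in hy5 replicate 2 and at most 0.0309% in the other 5. Levels below are CPM (counts relative to library size) scaled by effective library size, where 1 CPM is about 13.1 counts. Differences are log2 fold changes of hy5 minus WT ± SE from edgeR's quasi-likelihood test, with Benjamini-Hochberg adjusted p-values over all genes tested. Unless marked SD, the ± value is an approximate SE: the absolute log2 fold change divided by the square root of the test's F statistic. "Rose" and "fell" mean an adjusted p under 0.05.

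HY5 itself (AT5G11260, chromosome 5, 3593335 to 3595073 in TAIR10, minus strand) was low in all 3 mutant libraries. It held 10.5, 7.44 and 9.61 CPM in WT and 0.0679, 0.376 and 1.31 CPM in hy5, the latter from 1, 4 and 14 counts. Replicate 3 was the highest of the hy5 libraries, the groups did not overlap, and the difference was -4.08 ± 0.50, adjusted p = 1.6e-04, a 15.6-fold lower mean. HYH, the closest homologue of HY5, held 12.1, 9.64 and 8.89 CPM in WT and 6.92, 9.402 and 8.73 CPM in hy5. These ranges overlapped, and its difference of -0.30 ± 0.27, adjusted p = 0.47 did not pass. The lines held mean HY5 levels of 302 (K87K), 263 (K87Q) and 365 CPM (K87R), and transgene and endogenous reads cannot be told apart here.

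Of 19679 genes tested, 4618 (23.5%) differed between hy5 and WT: 2393 (12.2%) rose and 2225 (11.3%) fell. A difference of at least 2-fold was found for 1351 genes (6.87%), 579 higher (2.94%) and 772 lower (3.92%). The median over all tested genes was -0.014. With the spread estimated over all 21 libraries, high light included, 44 genes were called, and with the 6 libraries alone 6863. Whether or not a gene was called, all 3 hy5 libraries lay above all 3 WT libraries for 22.5% of tested genes and below them for 22.6%. In whole seedlings, fewer cells of a type and less RNA per cell cannot be told apart. The plot of all genes shows the spread narrowing with level, with CHS, PELPK1 and LRX3 far outside it.

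**Figure D1:**
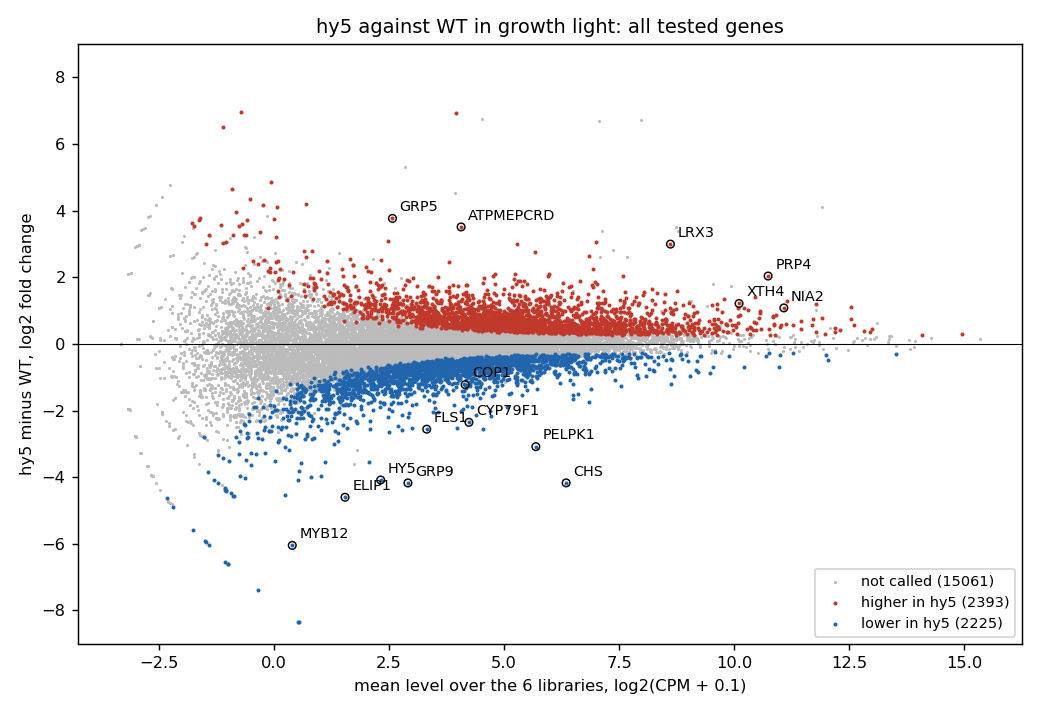
Each point is one of the 19679 tested genes, with its mean level over the 6 libraries (x, log2 scale) against the hy5 minus WT log2 fold change (y). Red points are the 2393 genes that rose, blue points the 2225 that fell, and circles mark genes named in the text. CHS and GRP9 lie near -4.17 and GRP5 at 3.77.

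Genes of the flavonoid route, which makes flavonols and anthocyanins, fell or did not pass. None of the 17 tested flavonoid enzyme genes rose, 8 fell and 9 did not pass, with a list median of -0.53. Over all tested genes 12.2% rose and 11.3% fell. CHS, chalcone synthase, the entry enzyme of the route, held 156, 150.3 and 156 CPM in WT and 8.62, 7.33 and 9.67 CPM in hy5. That is an 18.04-fold lower mean (-4.17 ± 0.16, adjusted p = 5.6e-19), and the 3 libraries of each genotype lay close together. FLS1, the main flavonol synthase, held 16.1, 19.1 and 15.5 CPM in WT against 3.596, 3.197 and 1.69 CPM in hy5 (-2.56 ± 0.34, adjusted p = 9.4e-07). The coumarate ligase gene 4CL3, whose product feeds the flavonoid branch, held 8.02, 9.05 and 6.41 CPM in WT and 1.97, 2.54 and 2.35 CPM in hy5 (-1.78 ± 0.33, adjusted p = 1.4e-04). DFR, dihydroflavonol reductase, on the way to anthocyanins, fell from 1.53, 3.47 and 2.62 CPM to 0, 0.4701 and 0.0939 CPM (-3.80 ± 1.00, adjusted p = 0.0049). The remaining called enzymes moved less. The rhamnose synthase gene RHM1 (-0.48 ± 0.11, adjusted p = 0.0018) and BGLU10, an acyl-glucose-dependent glucosyltransferase gene (-0.73 ± 0.16, adjusted p = 9.0e-04), fell.

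CHI, chalcone isomerase, and its non-catalytic partner CHIL stood outside the 6 smallest p-values and were named after their values were seen. CHI held 19.5, 21.3 and 18.4 CPM in WT and 13.3, 12.3 and 15.3 CPM in hy5 (-0.53 ± 0.17, adjusted p = 0.022). CHIL held 20.8, 15.7 and 20.9 and 12.01, 12.7 and 12.7 CPM (-0.62 ± 0.23, adjusted p = 0.043). For both genes every hy5 library lay below every WT library. CHI lost its call without WT replicate 1 or 2 or hy5 replicate 1 or 2 (adjusted p = 0.0512 to 0.0986), and CHIL without any library except WT replicate 2 (0.095 to 0.149). The flavonol glycosyltransferase genes UGT78D1 (-0.14 ± 0.15, adjusted p = 0.54) and UGT78D2 (0.35 ± 0.16, adjusted p = 0.12) did not pass, nor did the flavonoid hydroxylase gene TT7 (0.45 ± 0.40, adjusted p = 0.46). LDOX, anthocyanidin synthase, held 1.19, 1.52 and 2.22 CPM in WT and 0.271, 0.752 and 0.188 in hy5 and also missed the threshold (-2.03 ± 0.84, adjusted p = 0.08). F3H, flavanone hydroxylase, was listed at 0 in all 6 libraries. Its gene span shares 1588 of 1681 bases with a gene on the other strand, so it could not be assessed.

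Among the flavonoid regulators, MYB12, the activator of the flavonol branch, was nearly absent from the mutant. It had 37, 29 and 33 counts in WT and 0, 0 and 1 in hy5, so that WT counts were 86.03 times those of hy5, with 15.1 to 3432 as the 95% interval of counting error (adjusted p = 1.1e-04). MYB4, a repressor of phenylpropanoid genes, held 5.51, 4.65 and 3.79 CPM in WT and 1.696, 1.97 and 0.939 CPM in hy5 (-1.59 ± 0.38, adjusted p = 0.002). The nitrogen-responsive repressors of anthocyanin genes LBD37 and LBD38 moved the other way. LBD38 held 156, 143 and 153 CPM in WT and 237, 225 and 253 CPM in hy5 (0.66 ± 0.12, adjusted p = 1.5e-04), and LBD37 rose by 0.46 ± 0.10 (adjusted p = 7.4e-04). In all, 2 of 11 tested regulators rose and 2 fell, against 12.2% and 11.3% of all tested genes. The WD40 gene TTG1, shared by the anthocyanin and trichome complexes, held 63.7 ± 6.901 CPM in WT and 67.9 ± 2.83 in hy5 (SD, n = 3) and did not pass.

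The HY5-GFP lines give further levels of the same genes, without a test here. Mean CHS was 36.97 CPM in K87K, 15.1 in K87Q and 4.89 in K87R, all far below the WT mean of 154 ± 3.29 CPM (SD, n = 3). Mean MYB12 was 0.472, 1.09 and 0.155 CPM, against 2.397 ± 0.217 CPM in WT.

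The plot of selected genes by library shows these levels beside those of light-protection genes.

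**Figure D2:**
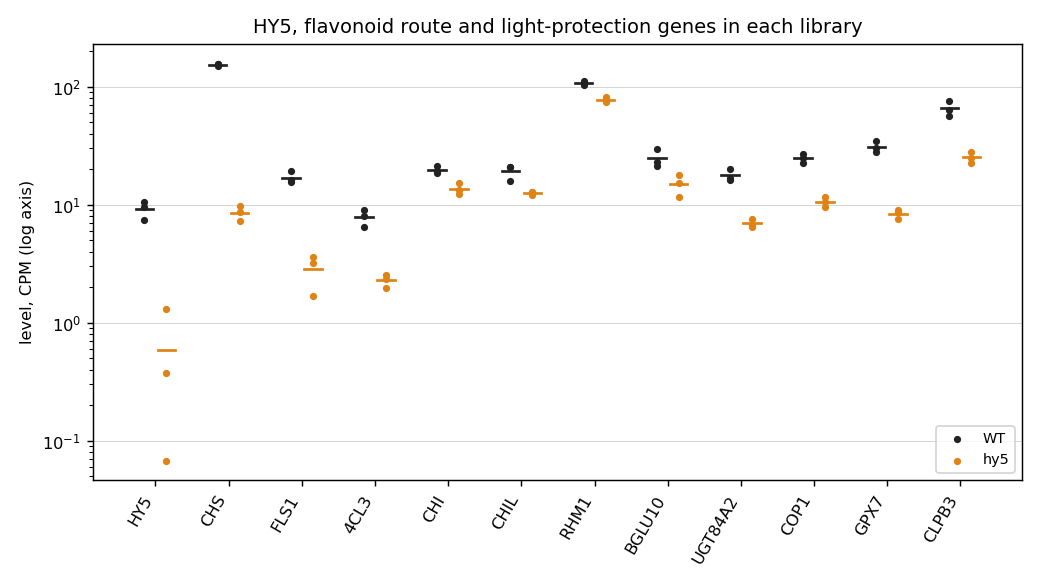
Level in CPM (log axis) of 12 genes in each WT (black) and hy5 (orange) growth-light library; short bars are the means of 3 libraries. For every gene drawn, all 3 hy5 libraries lie below all 3 WT libraries.

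The 250 bases before the annotated gene start are shown for 4 genes of the flavonol branch and for ELIP1, because HY5 is known to bind ACGT elements in light-regulated promoters. They were read from TAIR10.1 (RefSeq), 5′ to 3′ on the gene's strand. Capitals mark the G-box, CACGTG, and a related element called the T/G-box. The latter is CACGTT, which reads as AACGTG when it lies on the opposite strand. None of the 5 windows overlaps another annotated gene.
CHS (chr5:4488226-4488475, plus strand): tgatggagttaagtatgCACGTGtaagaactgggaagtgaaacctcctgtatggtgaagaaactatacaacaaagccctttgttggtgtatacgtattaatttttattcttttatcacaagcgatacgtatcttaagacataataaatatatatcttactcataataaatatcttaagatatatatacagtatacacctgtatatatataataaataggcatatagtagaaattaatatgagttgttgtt
CHIL (chr5:1563036-1563285, plus strand): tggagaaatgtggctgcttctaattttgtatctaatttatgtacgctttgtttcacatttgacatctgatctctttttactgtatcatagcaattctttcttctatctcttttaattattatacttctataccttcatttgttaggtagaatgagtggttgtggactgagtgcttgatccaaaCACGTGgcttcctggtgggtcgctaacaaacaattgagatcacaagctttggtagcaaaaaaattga
MYB12 (chr2:19476076-19476325, plus strand): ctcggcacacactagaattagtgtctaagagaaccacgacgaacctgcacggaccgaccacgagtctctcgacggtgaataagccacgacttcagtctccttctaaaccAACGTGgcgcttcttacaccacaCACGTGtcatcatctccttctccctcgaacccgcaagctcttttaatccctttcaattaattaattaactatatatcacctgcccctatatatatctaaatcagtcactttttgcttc
FLS1 (chr5:2803583-2803832, plus strand): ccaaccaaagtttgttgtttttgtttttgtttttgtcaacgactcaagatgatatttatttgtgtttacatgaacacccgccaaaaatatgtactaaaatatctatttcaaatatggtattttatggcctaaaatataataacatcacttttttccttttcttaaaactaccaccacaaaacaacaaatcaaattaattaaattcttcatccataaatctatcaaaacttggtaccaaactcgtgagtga
ELIP1 (chr3:8085670-8085919, minus strand): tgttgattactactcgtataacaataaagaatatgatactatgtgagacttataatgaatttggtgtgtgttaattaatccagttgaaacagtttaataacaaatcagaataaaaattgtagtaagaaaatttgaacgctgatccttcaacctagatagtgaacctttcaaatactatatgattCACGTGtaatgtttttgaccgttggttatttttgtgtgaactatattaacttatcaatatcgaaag
The G-box began 233 bases before the start in CHS, 67 in CHIL, 118 in MYB12 and 66 in ELIP1. MYB12 also held AACGTG 141 bases before its start. The FLS1 window held none of the searched motifs, which also included the C-box GACGTC. These 5 were chosen after their values and motifs were seen.

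Motif shares were counted over all genes as a background. A window was read for 19536 of the 19679 tested genes, and each motif was searched on both strands. CACGTG was in 7.55% of all windows, in 8.85% of the windows of genes that fell and in 7.75% of those of genes that rose. For genes that fell at least 2-fold the share was 9.2% (71 of 772), and for those that rose at least 2-fold 7.32% (42 of 574). CACGTT was in 7.58% of all windows, 8.22% of those of genes that fell and 7.29% of those of genes that rose. GACGTC was in 2.45%, 2.92% and 1.68%. The shorter ACGT, part of each of these motifs, was in 44.6% of all windows, 46.1% of those of genes that fell and 45.4% of those of genes that rose. Of the genes that fell, 3 of 8 flavonoid enzyme genes, 2 of 9 photoprotection genes, 1 of 9 chlorophyll genes and 1 of 16 aliphatic glucosinolate genes held CACGTG. No test was made of these shares.

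The general phenylpropanoid and sinapate list split both ways: of 22 tested genes, 6 fell, 4 rose and 12 did not pass, with a median of -0.23. Over all tested genes 11.3% fell and 12.2% rose. UGT84A2, the sinapate glucosyltransferase, held 16.3, 19.96 and 16.9 CPM in WT and 6.72, 7.62 and 6.48 CPM in hy5 (-1.35 ± 0.19, adjusted p = 2.5e-06). The methyltransferase genes CCOAOMT1 (-0.84 ± 0.12, adjusted p = 1.9e-06) and COMT1 (-0.46 ± 0.11, adjusted p = 0.0015) fell. So did the alcohol dehydrogenase gene CAD4 (-0.55 ± 0.11, adjusted p = 4.3e-04) and REF1, an aldehyde dehydrogenase gene of sinapate synthesis (-0.52 ± 0.12, adjusted p = 0.0012). Every hy5 library lay below every WT library for these 5. HCT, a hydroxycinnamoyl transferase earlier in the lignin branch, held 368, 334 and 353 CPM in WT and 495, 496 and 490.2 CPM in hy5 (0.49 ± 0.12, adjusted p = 0.0029). Of the phenylalanine ammonia-lyase genes of the first step, PAL1 (-0.26 ± 0.11, adjusted p = 0.099) did not pass and PAL3, named after its values were seen, rose (0.57 ± 0.16, adjusted p = 0.0095). C4H, of the next step, did not pass (-0.17 ± 0.11, adjusted p = 0.3).

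Genes of light signalling and HY5 control also changed in both directions: of 41 tested, 5 rose, 9 fell and 27 did not pass (median -0.11). The share that rose was near the 12.2% over all tested genes, of which 11.3% fell. COP1, the ligase that targets HY5 for degradation, held 22.5, 25.03 and 26.7 CPM in WT and 9.57, 11.7 and 10.6 CPM in hy5. Its mean was 2.33-fold lower (-1.22 ± 0.17, adjusted p = 2.7e-06), with no overlap. HFR1, a bHLH factor that restrains shade growth, fell (-0.85 ± 0.22, adjusted p = 0.0041), and the shade factor PIF7 held 13.3, 13.1 and 12.8 CPM in WT and 6.11, 8.74 and 6.57 CPM in hy5 (-0.88 ± 0.23, adjusted p = 0.0046). FHY3, a transposase-derived factor that activates phytochrome A signalling, fell as well (-0.54 ± 0.15, adjusted p = 0.0063). PHYA, the phytochrome A photoreceptor gene, rose from 68.8, 87.4 and 76.4 to 111, 110.5 and 108 CPM (0.51 ± 0.11, adjusted p = 0.0013). With counts adjusted for gene length PHYA missed the threshold (0.22, adjusted p = 0.105). BBX4, a B-box factor also known as COL3, held 223, 212 and 216 CPM in WT and 327, 362 and 351 CPM in hy5 (0.68 ± 0.11, adjusted p = 1.6e-05). The cryptochrome gene CRY2 (-0.20 ± 0.10, adjusted p = 0.14), the UV-B receptor gene UVR8 (0.26 ± 0.12, adjusted p = 0.096), SPA1, a partner of COP1 (-0.22 ± 0.14, adjusted p = 0.27), BBX21, a B-box activator of HY5 (-0.29 ± 0.13, adjusted p = 0.11), and the thermal and shade factor PIF4 (0.14 ± 0.11, adjusted p = 0.4) did not pass.

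Photoprotection and repair genes fell more often than they rose: 9 of 18 fell, 1 rose and 8 did not pass (median -0.55). Over all tested genes 11.3% fell and 12.2% rose. ELIP1, which encodes a light-stress protein of the chloroplast, held 6.35, 3.97 and 5.95 CPM in WT and 0.407, 0 and 0.188 CPM in hy5 (-4.60 ± 0.62, adjusted p = 1.1e-06). Its homologue ELIP2, named after its values were seen, held 9.77, 9.39 and 7.32 CPM and 1.36, 1.97 and 3.57 CPM (-1.96 ± 0.39, adjusted p = 3.6e-04). Both were low in absolute terms, and in both no hy5 library reached any WT library. GPX7, a chloroplast glutathione peroxidase, fell from 30.4, 34.8 and 27.99 to 8.96, 7.52 and 8.73 CPM (-1.88 ± 0.21, adjusted p = 9.6e-08). CLPB3, the chloroplast disaggregase, held 56.6, 76.03 and 63.4 CPM in WT and 22.5, 25.01 and 27.8 CPM in hy5 (-1.38 ± 0.15, adjusted p = 4.1e-08). SIG5, a light-responsive plastid sigma factor, fell from 57.5, 58.02 and 55.4 to 26.7, 26.5 and 28.3 CPM (-1.07 ± 0.15, adjusted p = 2.5e-06). Among the carotenoid genes of the list, the xanthophyll cycle genes VDE1 (-0.61 ± 0.16, adjusted p = 0.0037) and ZEP (-0.48 ± 0.11, adjusted p = 9.1e-04), named after their values were seen, fell. PSY, phytoene synthase, the entry enzyme, held 304, 336 and 295 CPM in WT and 166, 166 and 154 CPM in hy5 (-0.94 ± 0.13, adjusted p = 1.0e-06), while BCH1, a carotene hydroxylase, rose from 94.02, 78.4 and 83.8 to 186, 176 and 182 CPM (1.09 ± 0.12, adjusted p = 5.1e-08). GPX7 shares 751 of 2409 bases with a gene on the other strand, and no strand setting is stated, so its counts are uncertain.

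Chlorophyll synthesis genes mostly fell or did not pass: 9 of 21 fell, 2 rose and 10 did not pass (median -0.29). The share that rose was near the 12.2% over all tested genes, of which 11.3% fell. HEMA1, glutamyl-tRNA reductase, the regulated first step, held 658, 746 and 684 CPM in WT and 339, 371 and 371 CPM in hy5 (-0.95 ± 0.12, adjusted p = 6.1e-07). The protochlorophyllide reductase gene PORC fell from 138, 162 and 152 to 83.1, 86.3 and 89.98 CPM (-0.80 ± 0.11, adjusted p = 1.2e-06). DVR, divinyl reductase (-0.81 ± 0.15, adjusted p = 1.6e-04), and CAO, chlorophyll a oxygenase (-0.53 ± 0.10, adjusted p = 3.0e-04), fell too. CHLH, the large subunit of magnesium chelatase, went the other way, from 1448, 1559.5 and 1541 to 2121, 2293 and 2278 CPM (0.56 ± 0.11, adjusted p = 4.2e-04). HEMB1, an early enzyme of the route, also rose (0.49 ± 0.10, adjusted p = 3.2e-04). In each of these 6 genes the genotypes did not overlap. CRD1, a subunit of the cyclase, did not pass (-0.16 ± 0.09, adjusted p = 0.25).

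Of 24 tested antenna and Rubisco genes, 3 rose, 2 fell and 19 did not pass, with a median of 0.10, a share of calls near the 23.5% over all tested genes. RBCS2B, a Rubisco small subunit gene, fell from 4852, 5022 and 4786 to 3495, 3545 and 3429 CPM (-0.49 ± 0.09, adjusted p = 1.9e-04). RBCS1A rose by 0.29 ± 0.08 (adjusted p = 0.012), a call lost without hy5 replicate 1 (0.061). The antenna genes LHCB3 (-0.30 ± 0.10, adjusted p = 0.021) and LHCB4.3 (0.50 ± 0.15, adjusted p = 0.015) and the Rubisco gene RBCS3B (0.26 ± 0.09, adjusted p = 0.028) were called as well. LHCB3 and RBCS3B lost their calls without any 1 of the 6 libraries (adjusted p = 0.0536 to 0.1 and 0.0688 to 0.117), and LHCB4.3 without WT replicate 2 or 3 or hy5 replicate 2 (0.0708 to 0.0899). LHCB1.3 (0.13 ± 0.25, adjusted p = 0.76), LHCB2.1 (0.23 ± 0.23, adjusted p = 0.53) and the Rubisco activase gene RCA (0.18 ± 0.09, adjusted p = 0.15) did not pass. RBCS and LHCB1 genes are near-identical copies, so reads may have been split between them.

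The 12 largest decreases, among genes with a symbol, 100 or more counts on average in whichever genotype was higher, and no overlap, included genes of several pathways. GRP9, a glycine-rich protein gene, held 18.6, 8.54 and 14.9 CPM in WT and 0.271, 0.752 and 1.41 CPM in hy5 (-4.17 ± 0.41, adjusted p = 6.7e-09). PELPK1, which encodes a proline-rich wall protein, held 88.8, 93.6 and 93.8 CPM in WT and 10.6, 11.3 and 10.7 CPM in hy5 (-3.08 ± 0.15, adjusted p = 1.3e-16). The AP2/ERF factor gene tny (TINY) fell from 25.7, 26.6 and 28.3 to 5.496, 3.38 and 4.88 CPM (-2.54 ± 0.23, adjusted p = 6.8e-10). ADH1, alcohol dehydrogenase, held 12.4, 8.203 and 11.7 CPM in WT and 2.04, 1.41 and 2.35 CPM in hy5 (-2.47 ± 0.28, adjusted p = 6.9e-08). The rest of the 12 were HY5, CHS, FLS1, CYP79F1 and CYP86B1, described elsewhere, and 3 more. Those were IGMT3, an indole glucosinolate methyltransferase gene (-2.14 ± 0.27, adjusted p = 3.8e-07), AK3, an aspartate kinase gene (-2.08 ± 0.27, adjusted p = 7.8e-07), and ABCI21, an ABC transporter family gene (-2.06 ± 0.30, adjusted p = 3.6e-06). AK3 shares 2537 of 6201 bases with a gene on the other strand.

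The 12 largest increases, chosen in the same way, included several genes of wall proteins. GRP5, a glycine-rich protein gene, held 1.12, 0.592 and 0.654 CPM in WT and 10.9, 11 and 10.8 CPM in hy5, a 13.9-fold higher mean (3.77 ± 0.29, adjusted p = 2.6e-11). ATPMEPCRD, a pectin methylesterase gene, rose from 3.14, 2.03 and 2.81 to 33.2, 28.96 and 29.6 CPM (3.51 ± 0.22, adjusted p = 1.9e-13). LRX3, a leucine-rich repeat extensin gene, held 91.02, 68.4 and 102 CPM in WT and 721, 656 and 711 CPM in hy5 (2.99 ± 0.57, adjusted p = 0.0034). In each of these every hy5 library stood clear of every WT library, as the choice of genes required. In the lines, mean LRX3 was 718 CPM in K87K, 88.4 in K87Q and 56.1 in K87R, so K87K lay at the hy5 level and the other lines near WT. PRP4, a proline-rich wall protein gene, rose from 636, 670.2 and 701 to 2464, 2965 and 2805 CPM (2.04 ± 0.30, adjusted p = 5.9e-04). AGP7, an arabinogalactan protein gene (2.09 ± 0.25, adjusted p = 4.2e-05), and the expansin-like gene EXLB1 (2.23 ± 0.37, adjusted p = 2.8e-05) rose as well.

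The other 6 increases were in genes of other kinds. RGL3, a DELLA repressor of gibberellin responses, held 2.44, 4.14 and 2.75 CPM in WT and 12.6, 11.3 and 10.9 CPM in hy5 (1.91 ± 0.28, adjusted p = 4.0e-06). TOR, the growth-controlling kinase, rose from 18.9, 19.3 and 16.2 to 63.8, 60.2 and 78.4 CPM (1.90 ± 0.19, adjusted p = 1.2e-07). GRV2, an endosomal DnaJ-domain protein needed for gravitropism (2.05 ± 0.24, adjusted p = 3.5e-05), and KAK, a ubiquitin ligase that limits trichome branching (1.85 ± 0.23, adjusted p = 6.3e-05), rose by like amounts. SLAH1, a homologue of the guard-cell anion channel SLAC1 (1.96 ± 0.28, adjusted p = 3.6e-06), and PGL4, a lactonase family gene (1.88 ± 0.31, adjusted p = 2.2e-05), completed the set. PRP4 shares 513 of 2028 bases and KAK 306 of 9078 with a gene on the other strand.

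**Figure D3:**
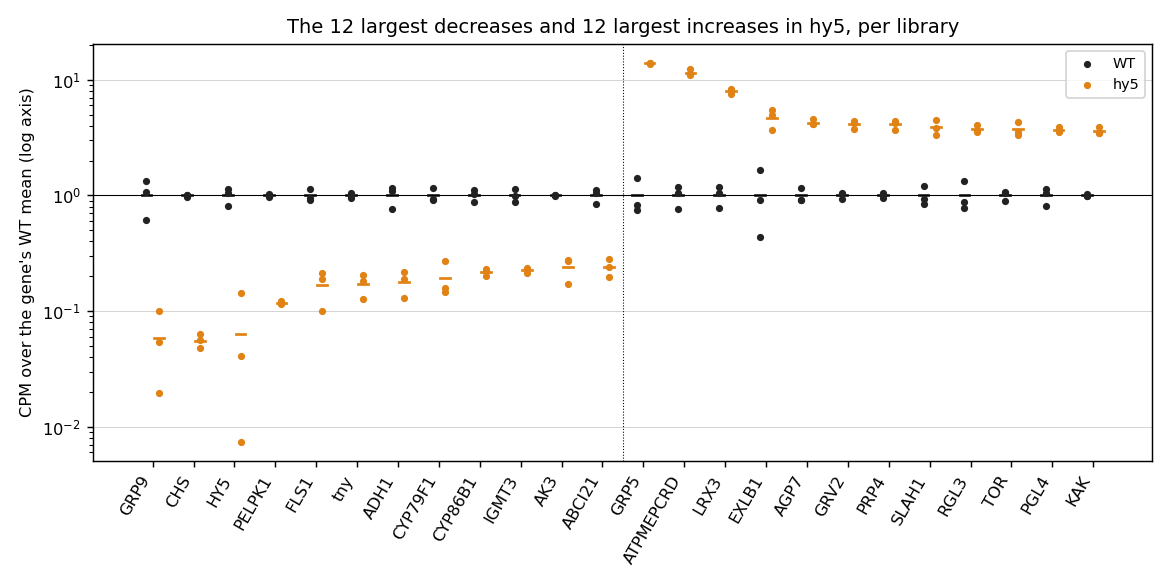
Each point is the CPM of 1 library divided by the gene's WT mean (log axis), for the 12 largest decreases (left of the dotted line) and the 12 largest increases (right); WT in black, hy5 in orange, bars at the means of 3 libraries. In all 24 genes the genotypes do not overlap, as the choice of genes required.

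Wall-loosening and elongation genes rose or did not pass: 9 of 25 rose, none fell and 16 did not pass (median 0.27). Over all tested genes 12.2% rose and 11.3% fell. XTH4, a xyloglucan endotransglucosylase gene, held 628, 698 and 667 CPM in WT and 1532, 1535 and 1551 CPM in hy5 (1.21 ± 0.11, adjusted p = 4.3e-10). XTH17, of the same family, rose from 20.6, 18.9 and 20.1 to 55.8, 54.7 and 53.6 CPM (1.46 ± 0.18, adjusted p = 1.9e-07). The relatives XTH24 (0.65 ± 0.12, adjusted p = 1.0e-04) and XTH15 (0.80 ± 0.17, adjusted p = 5.8e-04) rose less. XTH15 shares 382 of 1373 bases with a gene on the other strand. EXPA11, an expansin gene, held 51.2, 43.1 and 45.6 CPM in WT and 98.9, 90.8 and 88.4 CPM in hy5 (0.99 ± 0.15, adjusted p = 9.5e-06), whereas EXPA1 did not pass (0.14 ± 0.10, adjusted p = 0.34). BAS1, which inactivates brassinosteroids, rose from 13.6, 12.3 and 16.2 to 29.99, 31.2 and 25.1 CPM (1.03 ± 0.18, adjusted p = 4.4e-05). For the 6 genes named here that rose, every hy5 library lay above every WT library.

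Auxin genes rose in 9 cases and fell in 3 of 30 tested (median 0.32). The share that fell was near the 11.3% over all tested genes, of which 12.2% rose. PIN3, an auxin efflux carrier gene, held 109, 111 and 112 CPM in WT and 173, 159.8 and 183 CPM in hy5 (0.64 ± 0.12, adjusted p = 1.5e-04). Every hy5 library lay above every WT library. The repressor gene IAA7 rose (0.55 ± 0.11, adjusted p = 3.5e-04) and IAA2 fell (-0.71 ± 0.17, adjusted p = 0.0017). The growth-linked small auxin-up genes SAUR22 (1.52 ± 0.35, adjusted p = 0.0017) and SAUR21 (0.78 ± 0.20, adjusted p = 0.004) rose, and they sit in a cluster of near-identical copies whose reads may be shared. IAA19, an auxin-induced repressor gene, did not pass (0.60 ± 0.31, adjusted p = 0.17).

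Aliphatic glucosinolate genes had the largest share of calls in 1 direction among the pathway lists: 16 of 23 tested fell, none rose and 7 did not pass (median -0.85). Over all tested genes 11.3% fell and 12.2% rose. CYP79F1, which commits chain-elongated methionine to the pathway, held 28.9, 36.1 and 29.2 CPM in WT and 8.55, 4.98 and 4.602 CPM in hy5 (-2.35 ± 0.22, adjusted p = 2.0e-09). MAM1, the methylthioalkylmalate synthase of chain elongation, fell from 62.98, 62.2 and 59.5 to 20.6, 23.1 and 20.8 CPM (-1.52 ± 0.17, adjusted p = 6.3e-08). GSTU20, a glutathione transferase linked to the core pathway, fell from 136, 139 and 123 to 47.7, 43.9 and 46.6 CPM (-1.53 ± 0.13, adjusted p = 3.1e-10). The hy5 libraries lay below all WT libraries in each case. CYP83A1 (-0.85 ± 0.12, adjusted p = 1.4e-06), the isopropylmalate isomerase subunit gene IPMI_SSU2 (-1.18 ± 0.16, adjusted p = 1.2e-06) and the dehydrogenase gene IPMDH1 (-1.27 ± 0.19, adjusted p = 6.0e-06) fell as well. MYB29, a regulator of the pathway, held 4.05, 3.47 and 4.77 CPM in WT and 1.29, 1.03 and 1.13 in hy5 but did not pass (-1.82 ± 0.74, adjusted p = 0.094).

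The indolic branch fell in 3 of 8 genes, with none higher (median -0.39), against 11.3% and 12.2% of all tested genes. CYP83B1, the indolic counterpart of CYP83A1, held 95.8, 95.7 and 92.1 CPM in WT and 57.6, 60.2 and 65.7 CPM in hy5 (-0.63 ± 0.11, adjusted p = 8.3e-05). The calls of CYP79B2 (-0.42 ± 0.14, adjusted p = 0.03) and the sulfotransferase gene SOT16 (-0.36 ± 0.13, adjusted p = 0.039) changed with the libraries used. SOT16 lost its call without any 1 of the 6 libraries (adjusted p = 0.0689 to 0.157), and CYP79B2 without WT replicate 2 or 3 or hy5 replicate 1 or 3 (0.0609 to 0.184). MYB34, a regulator of the branch, did not pass (-0.33 ± 0.19, adjusted p = 0.24).

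Sulfate uptake and assimilation genes changed in both directions. Of 16 tested, 5 rose, 2 fell and 9 did not pass (median 0.14). The share that fell was near the 11.3% over all tested genes, of which 12.2% rose. The transporter genes SULTR1;2 (51.96, 58.6 and 56.5 CPM in WT, 78.6, 100.2 and 88.2 in hy5; 0.68 ± 0.13, adjusted p = 1.7e-04) and SULTR2;1 (0.51 ± 0.11, adjusted p = 0.0011) rose. So did APS1, ATP sulfurylase (0.49 ± 0.10, adjusted p = 3.9e-04), and SIR, sulfite reductase (0.44 ± 0.10, adjusted p = 0.0016). APK2, the kinase that makes the sulfate donor for glucosinolates, fell from 54.1, 60.8 and 57.4 to 31.6, 40.99 and 34.8 CPM (-0.68 ± 0.14, adjusted p = 3.7e-04). LSU1, a low-sulfur response gene, rose (1.12 ± 0.34, adjusted p = 0.015), a call lost without WT replicate 1 or 2 or hy5 replicate 1 or 2 (adjusted p = 0.0501 to 0.0896).

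Nitrate and ammonium genes rose in 8 of 17 tested cases and fell in 2 (median 0.32), against 12.2% and 11.3% of all tested genes. NIA2, the main nitrate reductase gene, held 1342, 1415 and 1413 CPM in WT and 2813, 2997 and 3001 CPM in hy5, a 2.11-fold higher mean (1.08 ± 0.15, adjusted p = 1.1e-05). NIR1, nitrite reductase, rose from 456, 473 and 455 to 718, 742 and 675 CPM (0.63 ± 0.10, adjusted p = 9.4e-06). The transporter genes NRT1.1 for nitrate (176, 174 and 168 CPM in WT, 289, 286 and 293 in hy5; 0.74 ± 0.10, adjusted p = 2.1e-06) and AMT1;2 for ammonium (141, 124 and 135 CPM in WT, 289, 281 and 274 in hy5; 1.08 ± 0.15, adjusted p = 3.4e-06) rose. In all 4 genes every hy5 library exceeded every WT library. GLU1, ferredoxin glutamate synthase, rose (0.56 ± 0.11, adjusted p = 3.3e-04), but not with counts adjusted for gene length (0.20, adjusted p = 0.122). GLN1;1, a cytosolic glutamine synthetase gene, fell from 61.8, 63.3 and 61.1 to 39.4, 38.1 and 41.04 CPM (-0.65 ± 0.13, adjusted p = 3.9e-04), and the plastid form GLN2 did not pass (0.08 ± 0.09, adjusted p = 0.56).

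Genes of sugar status rose or did not pass: 9 of 20 rose, none fell and 11 did not pass (median 0.14). Over all tested genes 12.2% rose and 11.3% fell. ASN1, the dark-inducible asparagine synthetase, held 336, 355 and 335 CPM in WT and 740.4, 761 and 758 CPM in hy5 (1.14 ± 0.10, adjusted p = 8.3e-10). DIN10, a dark-inducible raffinose synthase-like gene, rose from 1032, 996 and 1025 to 1958, 1999 and 2033 CPM (0.97 ± 0.11, adjusted p = 4.4e-08). The trehalose phosphate synthase family genes TPS9 (0.62 ± 0.10, adjusted p = 2.1e-05) and TPS11 (0.49 ± 0.10, adjusted p = 7.8e-04) and MCCA, of leucine breakdown (0.63 ± 0.13, adjusted p = 4.4e-04), rose, as did the phloem sucrose carrier gene SUC2 (0.59 ± 0.12, adjusted p = 3.5e-04). The genotypes did not overlap in these genes. SEN1, another dark-inducible gene, did not pass (-0.17 ± 0.11, adjusted p = 0.26).

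Clock genes changed in both directions, 6 higher and 6 lower of 21 tested (median -0.02), against 12.2% and 11.3% of all tested genes. LHY, a morning MYB factor, held 14.5, 20.2 and 16.5 CPM in WT and 4.003, 5.27 and 6.01 CPM in hy5 (-1.75 ± 0.26, adjusted p = 6.3e-06). LNK1, a morning coactivator, fell from 61.7, 57.1 and 54.9 to 27, 31.9 and 31.9 CPM (-0.94 ± 0.17, adjusted p = 1.2e-04), and the evening complex gene ELF4 fell from 6.63, 3.13 and 4.12 to 1.76, 2.35 and 1.22 CPM (-1.39 ± 0.29, adjusted p = 6.2e-04). GI, an evening-phased gene, rose from 35.2, 34.9 and 32.6 to 68.6, 70.9 and 85.3 CPM (1.13 ± 0.14, adjusted p = 3.7e-07). ZTL, a blue-light F-box gene, rose from 74.4, 68.6 and 81.4 to 145, 151 and 136 CPM (0.94 ± 0.14, adjusted p = 7.3e-06), and so did LUX of the evening complex (0.57 ± 0.12, adjusted p = 3.6e-04), which shares 1507 of 3918 bases with another gene. CCA1, the close partner of LHY, held 42.1, 42.5 and 48.6 CPM in WT and 21.2, 19.8 and 19.1 CPM in hy5 and missed the threshold (-1.15 ± 0.40, adjusted p = 0.064). TOC1 (0.12 ± 0.13, adjusted p = 0.54) and LNK2 (-0.25 ± 0.12, adjusted p = 0.14) did not pass. The labels give no clock time of sampling, and its part in these differences was not tested.

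Defence genes split as well, 3 higher and 3 lower of 13 tested (median -0.03), against 12.2% and 11.3% of all tested genes. The 3 that fell were plant defensins of 1 family with similar sequences, so reads may be shared. PDF1.3 had 32, 35 and 43 counts in WT and 0, 0 and 0 in hy5, at least 31.9-fold lower when 3 counts are taken as the floor for all hy5 libraries together (adjusted p = 5.4e-09). Its summed counts in the K87K, K87Q and K87R lines were 7, 1773 and 1224, without a test here. PDF1.2a (11, 7 and 13 counts in WT, 1, 0 and 0 in hy5; adjusted p = 6.5e-05) and PDF1.2b (6, 10 and 4 and 0, 0 and 0; adjusted p = 0.0019) were rarer. The jasmonate synthesis genes AOS (207, 199 and 200.4 CPM in WT, 396, 393 and 356 in hy5; 0.92 ± 0.12, adjusted p = 7.5e-07) and LOX2 (0.58 ± 0.13, adjusted p = 0.0013) and the basic chitinase gene CHI-B (1.23 ± 0.19, adjusted p = 1.5e-05) rose. CHI-B shares 861 of 1849 bases with another gene.

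Of 7 tested heat shock genes, 3 fell and none rose (median -0.72), against 11.3% and 12.2% of all tested genes. HSP90.1, a cytosolic chaperone, fell from 14.4, 17.7 and 16.5 to 6.17, 3.95 and 6.39 CPM (-1.54 ± 0.18, adjusted p = 9.8e-08), and the disaggregase HSP101 fell by less (-0.72 ± 0.20, adjusted p = 0.0071). The call of HSFA2, a heat stress factor (-1.13 ± 0.38, adjusted p = 0.028), was lost without WT replicate 1 or 3 or hy5 replicate 1 or 2 (adjusted p = 0.0892 to 0.108). The small heat shock gene HSP18.2 did not pass (0.79 ± 0.64, adjusted p = 0.41).

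**Figure D4:**
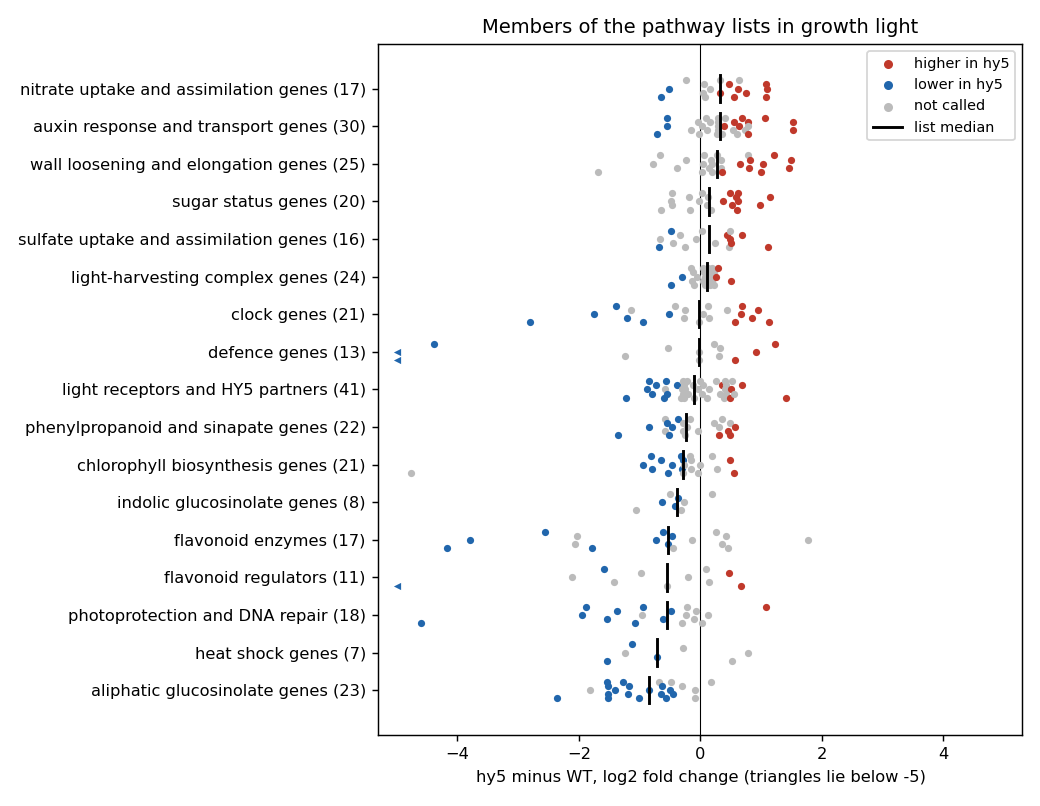
Each point is a tested gene of a pathway list at its hy5 minus WT log2 fold change in growth light; red rose, blue fell, grey did not pass, and black bars are list medians, with the number tested in brackets. Aliphatic glucosinolate genes (median -0.85) sit furthest left and auxin and nitrate genes (0.32 each) furthest right.

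Markers of cell types were counted beside these results. Summed root markers held 2928 to 3431 CPM in WT and 2856 to 2888 CPM in hy5. Most of that sum was BGLU23, with 194204 counts over the 6 libraries against 16142 for PHT1;1, the next most abundant. Of 15 root markers tested 4 rose and 1 fell (median 0.28), against 12.2% and 11.3% of all tested genes. The root genes that rose were PHT1;1, a phosphate transporter (0.84 ± 0.13, adjusted p = 1.3e-05), SHR, a root patterning factor (1.07 ± 0.17, adjusted p = 1.9e-05), LRX1, a root hair extensin (1.29 ± 0.22, adjusted p = 2.7e-04), and FRO2, an iron reductase (0.96 ± 0.25, adjusted p = 0.0046). BGLU23, the most abundant root marker, fell (-0.29 ± 0.10, adjusted p = 0.043), a call lost without any library except WT replicate 1 (adjusted p = 0.0962 to 0.236). The root hair genes COBL9 (0.39 ± 0.26, adjusted p = 0.3) and EXPA7 (-0.14 ± 0.23, adjusted p = 0.71) did not pass.

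Suberin genes fell in 3 of 5 cases with none higher (median -0.72), against 11.3% and 12.2% of all tested genes. Their sum was 80.9 to 93.8 CPM in WT and 47.2 to 50.1 CPM in hy5. CYP86B1 held 13.5, 12.5 and 10.7 CPM in WT and 2.44, 2.73 and 2.82 CPM in hy5 (-2.20 ± 0.29, adjusted p = 8.5e-07), and CYP86A1, like it a fatty acid hydroxylase of suberin, fell from 40.2, 34 and 36.04 to 22.6, 21.1 and 20.4 CPM (-0.78 ± 0.14, adjusted p = 1.1e-04). ASFT, which adds ferulate to suberin, fell (-0.72 ± 0.17, adjusted p = 0.0023), and GPAT5, an acyltransferase of the same route, did not pass (-0.58 ± 0.27, adjusted p = 0.12).

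All 5 stomatal lineage genes had negative fold changes (median -1.27), but the levels were low and only KAT1, a guard-cell potassium channel (-1.27 ± 0.43, adjusted p = 0.028), and FAMA, a guard-cell fate factor (-1.01 ± 0.37, adjusted p = 0.041), passed. KAT1 lost its call without WT replicate 2 or hy5 replicate 2 or 3 (adjusted p = 0.114 to 0.303), and FAMA without any library except hy5 replicate 1 (0.0639 to 0.199). SPCH (-1.31 ± 0.56, adjusted p = 0.088), EPF2 (-1.96 ± 0.79, adjusted p = 0.07) and MYB60 (-0.81 ± 0.37, adjusted p = 0.11) did not pass. Of the trichome markers only KAK passed, and none of the 6 xylem and phloem markers did. Seed storage markers summed to at most 2.72 CPM in hy5, with OLEO2 the 1 that rose (1.94 ± 0.52, adjusted p = 0.0068), a call lost without WT replicate 3 (0.0579). No flower marker could be tested. The part of tissue proportions in the results above was not tested.

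The share of genes called varied with gene length. Tested genes were put into 10 bins of near-equal size by length. In the longest bin, of 3200 bases or more, 24.6% rose, against 8.73 to 13.9% in the other bins. The share that fell grew from 2.84% in the shortest bin to 17.5% in the next-to-longest and was 10.6% in the longest. Medians were 0.18 in the shortest bin, -0.12 in the next-to-longest and 0.066 in the longest. GRV2, TOR and KAK belong to the long genes that rose. With a length term in the scaling, 57.9% of the called genes were higher, against 51.8%, and every named gene kept its direction.

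**Figure D5:**
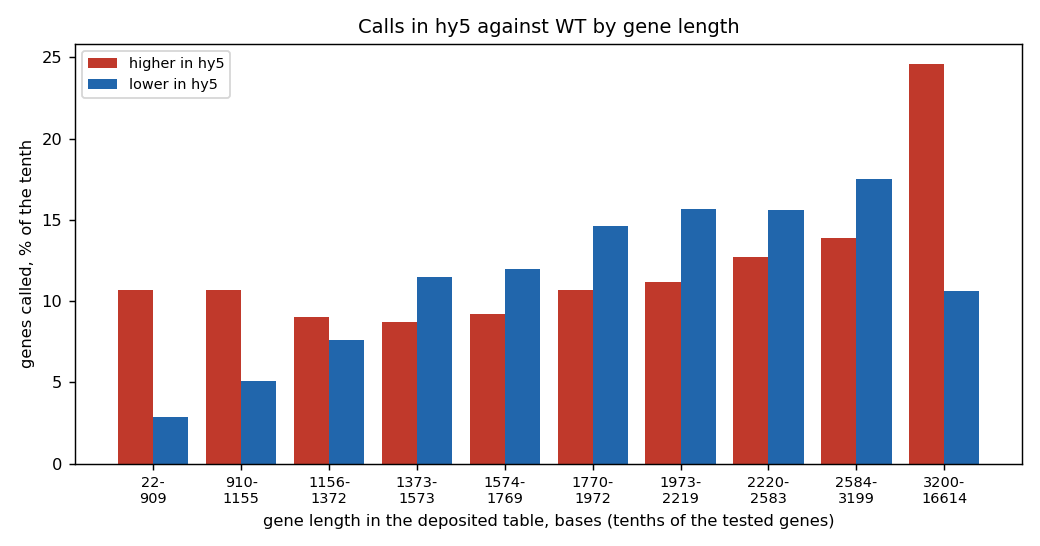
Bars give the percentage of tested genes that rose (red) or fell (blue) in hy5, for 10 bins of the tested genes by gene length in the deposited table (bases, x axis). The longest bin has 24.6% higher genes, and the share of lower genes is 2.84% in the shortest bin and 17.5% in the next-to-longest.

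Genes around HY5 on chromosome 5 were counted separately. Within 1 Mb, 26.6% of 467 tested genes were called, against 23.4% elsewhere, and 7.07% against 6.86% at 2-fold. Counts are also uncertain where genes overlap: of 204 called genes in the lists or named here, 54 (26.5%) share bases with another gene of the table.

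The high-light libraries of WT and hy5, which share no sample with growth light, gave a second look at the same genotypes. Their replicate 3 libraries stand apart, with plastid genes at 6.52% (WT) and 7.3% (hy5) of counts. The test on these 6 libraries called 1 of 17846 genes (0.0056%), MYB12. At an unadjusted p under 0.05 it found 464 genes, and DESeq2 called 45. Without both replicate 3 libraries, and with the spread taken from the other 19 libraries of the series, 6117 genes were called (2769 higher, 3348 lower). Without overlap, 2.95% of genes tested in growth light had every hy5 library above WT in high light and 4.63% every one below. Among genes that rose in growth light these shares were 4.76% and 1.5%, and among those that fell 0.989% and 8.31%. For genes that rose at least 2-fold they were 7.77% and 1.21%, and for genes that fell at least 2-fold 0.389% and 11.9%. By sign alone, 52.3% of the genes that rose and 52.7% of those that fell had the same sign in high light, against 49.2% of all tested in both. At 2-fold these were 69.1% of 521 and 55.7% of 679 genes. In the fit without both replicate 3 libraries the shares were 50.7% and 47%, against 47.6% of all, and at 2-fold 65.8% and 50.1%. In that fit, of the genes that rose in growth light 572 were called the same way and 496 the opposite way, and of those that fell 395 and 403.

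Of the 12 largest decreases, which include HY5 itself, 7 had all high-light hy5 libraries below WT. Of the 12 largest increases, 2 had all above. MYB12 held 104, 58.7 and 40.3 CPM in high-light WT and 0.0571, 0 and 0 CPM in hy5 (adjusted p = 0.016). CHS held 3965, 2612 and 22.9 CPM in high-light WT and 10.6, 5.05 and 0.142 CPM in hy5 (adjusted p = 0.999), with WT replicate 3 far below the other WT libraries but above every hy5 library. FLS1 held 458, 310.0 and 81.2 CPM in WT and 4.34, 3.12 and 2.55 CPM in hy5, again without overlap and without a call (adjusted p = 0.16). GRP5, raised in growth light, held 1.32, 1.29 and 0.574 CPM in high-light WT and 4.51, 18.5 and 2.06 CPM in hy5. ATPMEPCRD held 0.278, 0.0806 and 0.229 CPM and 4.28, 3.03 and 0.461 CPM. Neither passed the test in high light (adjusted p = 0.999 for each). Among the 17 flavonoid enzyme genes, 9 had every high-light hy5 library below WT and none had every one above. Over all genes tested in growth light these shares were 4.63% and 2.95%. CHS and FLS1 belong to both the 17 enzyme genes and the 12 largest decreases.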

How the data were processed

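RNA-seq read counts per gene, one column per library, were analysed as deposited by the authors, without normalization. The submitters' processing notes name TAIR10 as the build and, as tools with no roles given, featureCounts 1.5.0-p3, DESeq2 1.20.0, fastp, StringTie 1.3.3b and HISAT2 2.0.5. No strand setting is stated, so overlapping genes cannot be told apart. Of 32833 genes in the table, 32548 matched a reference locus and 32532 had the same start and end. No sample column (0) was left unmatched.

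Genes with too few counts were removed by group (edgeR filterByExpr, minimum 10), leaving 19679. Libraries were scaled by TMM. The 15 growth-light libraries (5 groups) were fitted with edgeR 4.0.16 (R 4.3.3, limma 3.58.1) by the robust quasi-likelihood method, with hy5 minus WT as the contrast and Benjamini-Hochberg adjusted p under 0.05 as the call. The residual degrees of freedom were 10, and the biological coefficient of variation was 18.9%. High light was fitted on its own 6 libraries. DESeq2 1.42.0 was an alternative. The code was tested on simulated data. Ratios from few counts carry 95% intervals for counting error only.

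Named were HY5, HYH, the 12 largest changes in each direction, up to 6 members per list with the smallest adjusted p, and members given as not passing. Of the genes this rule names in the lists of the report, 1 is not reported here. The members and lists were chosen with earlier results of these data known. The labels call the 3 samples of a group biological replicates.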

Additional observations from a re-analysis of the deposited data

Results flagged for a closer look

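Of the 2393 genes that rose in hy5 in growth light, 36 (1.5%) had every high-light hy5 library below every high-light WT library. That share was below the 4.63% over all tested genes. Of the 2225 genes that fell, 22 (0.989%) had every high-light hy5 library above WT, against 2.95% over all tested genes. Of the 36, 4 are in the lists or named genes and are given here. The difference between the light conditions was not tested, and no high-light value passed (adjusted p = 0.999 each). LRX1, a root hair extensin gene, had a log2 difference of 1.29 in growth light and -2.25 in high light, where it held 5.697, 8.06 and 5.54 CPM in WT and 3.02, 0 and 0.957 CPM in hy5. NRT1.8, a nitrate transporter gene, had 1.103 and -3.08, with 10.98, 10.6 and 1.72 CPM in WT and 1.14, 0.459 and 1.099 CPM in hy5. SAUR20, a small auxin-up gene, had 0.69 and -3.10, with 4.03, 4.11 and 0.726 CPM and 0.514, 0 and 0.461 CPM. TPS11, of the trehalose phosphate synthase family, had 0.49 and -1.08, with 49.95, 73.9 and 67.4 CPM and 25.3, 33.3 and 31.6 CPM.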

How the results depend on the processing

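Of 4618 genes called in growth light, 4517 were also called in the same direction with the 6 libraries alone. The count was 44 with all 21 libraries in the fit, 1351 when a 2-fold change was also required, and 3243 to 3690 when 1 of the 6 libraries was left out. It was 3195 with replicates 2 and 3 alone and 3526 without hy5 and K87K replicate 3 (chosen after seeing the data). With a gene length term, also chosen later, 57.9% of calls were higher, and with DESeq2 size factors 56.2%, against 51.8%. With the replicate number as a block 4884 genes were called. Same-numbered WT and hy5 libraries correlated at 0.0773, 0.0439 and 0.0861 in their deviations, each best with its own number, and the labels state no pairing. In high light the count of 1 became 6117 when both replicate 3 libraries were left out and the spread was taken from the other 19 libraries, 636 with all 21 libraries, 29 with the replicate block and 0 to 1 when 1 library was left out. Over named genes and alternatives, 2917 values kept their state, which includes genes that stayed uncalled. A call was lost in 305 (135 of them in the 21-library fit and 74 at 2-fold) and gained in 32, and 0 reversed direction. The causes were not tested.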

Other observations

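Further groups, chosen after their values were seen, are given as values. The carotenoid genes PSY, BCH1, BCH2, ZEP and VDE1 were already counted in the photoprotection list. So were SIG5 and CLPB3 of the sigma factor and chaperone group. Over all tested genes 11.3% fell and 12.2% rose. Of 14 tested phosphate status genes, 8 fell and 2 rose (median -0.89). SPX1, a phosphate sensor gene, held 26.6, 30.3 and 24.7 CPM in WT and 8.41, 5.64 and 6.86 CPM in hy5 (-1.95 ± 0.20, adjusted p = 1.1e-08), and SQD1, of sulfolipid synthesis, fell (-0.98 ± 0.12, adjusted p = 3.3e-07). Of 14 carotenoid genes, 8 fell and 1 rose (median -0.50), with the cyclase gene LUT2 at -0.72 ± 0.15, adjusted p = 3.8e-04. Of 12 plastid sigma factor and chaperone genes, 8 fell and none rose (median -0.87), with the sigma factor SIGA at -1.20 ± 0.12, adjusted p = 9.5e-09 and the chaperonin subunit CPN60B at -0.89 ± 0.11, adjusted p = 2.5e-07. These p-values are edgeR's, adjusted over all tested genes.

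Some loci, also chosen after their values were seen, were absent or nearly absent from one genotype. With at least 20 summed counts in the other genotype, 12 genes had 0 counts in hy5 and 2 in WT. Among the 12, AT2G20870 had 113 summed counts in WT, PDF1.3 had 110, TPS12 (AT4G13280, a terpene synthase gene) had 58 and PDF1.2c had 33. In the K87K, K87Q and K87R lines AT2G20870 had 23, 7 and 1 summed counts and PDF1.3 had 7, 1773 and 1224. There TPS12 had 2, 42 and 62 and PDF1.2c had 0, 925 and 689. AT3G05945 held 0.0698, 0.423 and 0.262 CPM in WT and 29.4, 30.8 and 30.9 CPM in hy5 (6.92 ± 0.41, adjusted p = 9.2e-11), and 23.5, 21.3 and 21.1 CPM on average in the K87K, K87Q and K87R lines. AT3G44570 and AT3G44580 had 0 counts in WT and 38 and 27 summed counts in hy5, with 33 to 36 and 23 to 52 in the lines.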
